A study of Mus musculus with 8 samples.

Results

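Branched-chain amino acid catabolism in brown adipose tissue (BAT) was followed through 10 genes: Bcat2, Bckdha, Bckdhb, Dbt, Bckdk, Ivd, Mccc1, Mccc2, Hibch and Acadsb. They were taken by symbol, after the Ensembl identifiers of the count table had been matched to mouse gene names, and make up 10 of the 31053 genes listed. All 10 were found and all 10 passed the filter on low counts, which kept 9264 genes for testing.

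The data are bulk RNA-seq of BAT from 4 wild-type (WT) and 4 db/db mice, all 8 weeks old. Per the study's methods the mice were males that had been fasted before tissue collection, the WT mice were C57BL6/J from Charles River and the db/db mice were B6.BKS(D)-Leprdb/J from Jackson, whereas the labels give the strain C57BL6/J for both genotypes. A list of strains in the study names Jackson as the source of both, so the vendor of the WT mice is not settled, and if it was Charles River genotype and vendor cannot be told apart. db/db mice carry a loss-of-function allele of the leptin receptor in every cell of the body and become hyperphagic, obese and diabetic, so the comparison is of whole animals and not of an allele acting in brown adipocytes alone. Lepr had 0 counts in all 8 libraries, WT included, and thus gave no check of the genotypes. The labels name the tissue as BAT but the cell type as stromal vascular fraction, the part of the tissue without mature adipocytes. The defining adipocyte genes were abundant in every library, with Adipoq at 1250 to 1830 counts per 1000000 counts (CPM) in WT and 1680 to 2110 CPM in db/db, and Ucp1 at 1890 to 2750 and 1060 to 2030 CPM, so the libraries are described here as whole BAT.

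Leucine, isoleucine and valine share the first steps of their breakdown. A transaminase, Bcat2 in mitochondria or Bcat1 in the cytosol, moves the amino group to 2-oxoglutarate, and the resulting branched-chain keto acids are decarboxylated by the branched-chain keto acid dehydrogenase complex, built from Bckdha, Bckdhb, Dbt and Dld. The complex is switched off when the kinase Bckdk phosphorylates the Bckdha subunit and is switched on again by the phosphatase Ppm1k. Past the complex the routes part: Ivd and the 3-methylcrotonyl-CoA carboxylase subunits Mccc1 and Mccc2 serve leucine, Acadsb serves isoleucine, and Hibch serves valine. The products are acetyl-CoA, ketone bodies and propionyl-CoA. Brown fat is known for taking up these amino acids when it makes heat, which makes the pathway a part of its fuel supply.

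To show what lies in front of these genes, the 250 bases before the annotated RefSeq start (GRCm38.p6) were read for the members. A window was held for 9 of the 10 genes, Dbt being without one, and 11 windows were read because Bcat2 and Bckdhb have more than 1 start. Windows are shown for Bckdk, the only member whose fitted change was upward, for Bckdhb, the partner of Bckdha in the decarboxylase, for Ivd, a member called lower, and for Mccc2, a member that was not called. Capitals mark the CCAAT box (CCAAT or, on the other strand, ATTGG) and the GC box (GGGCGG or CCGCCC). Bckdk lies on chr7:127904082-127910221, plus strand, and its window on chr7:127903823-127904072. Bckdhb lies on chr9:83925145-84124240, plus strand, with its window on chr9:83924887-83925136, 136 bases of which are annotated as exon of another gene. Ivd lies on chr2:118861954-118882909, plus strand, with a window on chr2:118861744-118861953 that was cut to 210 bases where GENCODE places the start of the transcript. Mccc2 lies on chr13:99948530-100015639, minus strand, with its window on chr13:100015640-100015889.
Bckdk: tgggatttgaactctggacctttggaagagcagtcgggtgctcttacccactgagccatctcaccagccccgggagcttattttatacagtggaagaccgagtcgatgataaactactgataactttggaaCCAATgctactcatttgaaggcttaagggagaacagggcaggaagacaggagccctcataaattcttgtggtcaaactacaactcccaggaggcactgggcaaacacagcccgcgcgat
Bckdhb: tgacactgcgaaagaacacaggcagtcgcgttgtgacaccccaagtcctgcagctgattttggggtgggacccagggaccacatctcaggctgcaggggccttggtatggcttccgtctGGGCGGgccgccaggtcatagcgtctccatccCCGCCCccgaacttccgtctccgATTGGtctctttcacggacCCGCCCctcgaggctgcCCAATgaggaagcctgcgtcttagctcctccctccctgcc
Ivd: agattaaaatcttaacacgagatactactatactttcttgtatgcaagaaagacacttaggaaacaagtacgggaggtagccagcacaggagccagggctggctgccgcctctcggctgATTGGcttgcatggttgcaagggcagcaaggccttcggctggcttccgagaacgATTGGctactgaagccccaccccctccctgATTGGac
Mccc2: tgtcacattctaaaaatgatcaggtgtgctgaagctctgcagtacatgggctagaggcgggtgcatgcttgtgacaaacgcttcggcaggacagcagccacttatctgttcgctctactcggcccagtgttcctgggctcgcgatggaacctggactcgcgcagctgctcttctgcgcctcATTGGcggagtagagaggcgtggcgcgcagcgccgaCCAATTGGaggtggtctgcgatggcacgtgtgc

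The shown windows held 1 CCAAT box for Bckdk, 2 CCAAT boxes and 3 GC boxes for Bckdhb, 3 CCAAT boxes for Ivd and 3 for Mccc2, and their GC content was 50.0%, 63.2%, 52.9% and 58.8%. Of the 11 full windows, 5 held a CCAAT box, each of a different gene (Ivd, Mccc1, Bckdk, Bckdhb and Mccc2), against 33.8% of 32851 promoter windows of all genes. A GC box was found in 4 of the 11 (of Hibch, Mccc1, Acadsb and Bckdhb), against 32.7% of all windows. AAGGTCA, the core site of estrogen-related receptors, and TGACGTCA, the cAMP response element, were searched on both strands and found in 0 of the 11 windows, and in 4.08% and 1.55% of all windows. The window of Bckdha is not shown because GENCODE counts 220 of its 250 bases as exon of that gene. The full windows of Hibch (109 bases), Ivd (40) and 1 of Bcat2 (all 250) also hold exon of their own gene. All of these are among the 11 windows counted. Members called lower and members not called were found among those with a CCAAT box and among those without, and a match says only that the letters are there.

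As a whole, 6 of the 10 genes were lower in db/db BAT, 0 were higher and 4 were not called. All 10 skeletal muscle markers examined were higher in db/db, and with their score as a covariate 0 of the 10 genes were called, as described further on. Called means an adjusted p under 0.05 in the quasi-likelihood F test of edgeR, with Benjamini-Hochberg adjustment over all 9264 genes. Over all genes tested, 27.7% were called, 11.9% lower and 15.8% higher, so the 6 of 10 members called lower stand beside a background of 11.9%. The fitted log2 fold change, db/db minus WT, was negative for 9 of the 10 and had a median of −0.57 with a range from −0.82 to 0.31, while the median over all genes tested was 0.01. Every db/db library lay below every WT library for 4 members (Bckdha, Dbt, Ivd and Acadsb) and above for 0. Over all genes tested, 12.7% were separated downward in this way and 15.3% upward.

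The summed level of the 10 genes was 946.9, 1016.3, 979.2 and 1010.2 CPM in WT libraries 1 to 4 and 579.7, 707.2, 739.4 and 710.9 CPM in db/db libraries 1 to 4. CPM here are relative to the library's total over tested genes after scaling by the trimmed mean of M values (TMM). The lowest WT sum was thus above the highest db/db sum. Measured as the mean log2 deviation of the 10 genes from their WT mean, db/db libraries 1 to 4 stood at −0.65, −0.39, −0.47 and −0.52 and the WT libraries between −0.04 and 0.07. In each db/db library 8 or 9 of the 10 genes were below their WT mean. In bulk tissue, fewer cells of a type and less RNA per cell cannot be told apart.

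**Figure D1:**
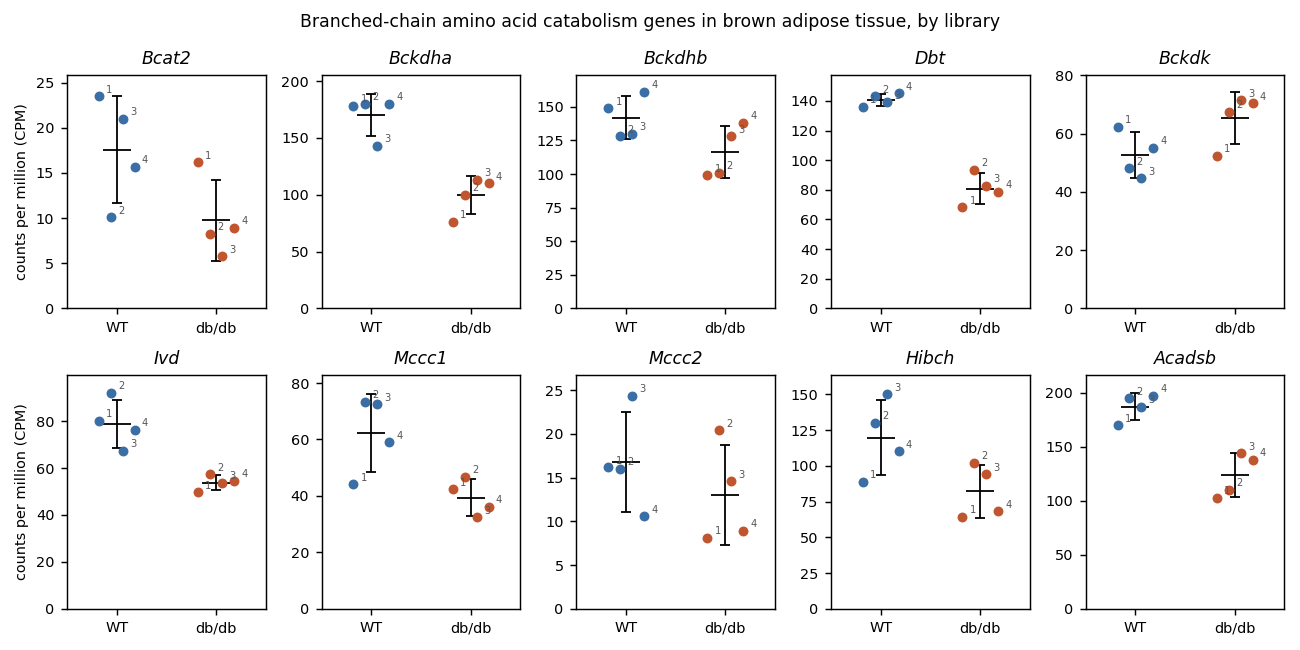
CPM of each of the 10 genes (vertical axis, starting at 0, with a scale of its own in each panel) in the 4 WT (blue) and 4 db/db (orange) libraries, numbered by replicate; the long dash is the mean and the whiskers are the SD. Bckdha, Dbt, Ivd and Acadsb show no overlap between the genotypes, and Bckdk is the gene whose db/db mean lies above the WT mean.

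At the entry to the pathway, the mitochondrial transaminase Bcat2 (chr7:45570153-45589711, plus strand) was measured at low counts. It stood at 23.5, 10.1, 21.0 and 15.7 CPM in WT libraries 1 to 4 and at 16.2, 8.27, 5.76 and 8.93 CPM in db/db libraries 1 to 4, with 13 to 58 counts a library. WT libraries 2 and 4 and db/db library 1 lay within the range of the other genotype, and the other 3 db/db libraries were below every WT library. The fitted log2 fold change was −0.82 (SE 0.32), the largest negative value among the members, but it was not called (edgeR adjusted p = 0.0672). Without db/db library 1 it was −1.19 (adjusted p = 0.00927) and without WT library 2 it was −1.02 (adjusted p = 0.0275), so whether it was called turned on single libraries. Bcat2 shares 622 exon bases with 0610005C13Rik on the opposite strand, which held 0 to 8 counts, and because the use of strand in counting is not stated its count is uncertain.

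The cytosolic transaminase Bcat1 (chr6:144993835-145076184, minus strand), which is not among the 10 genes, was called higher in db/db. It had 3, 0, 0 and 0 counts in WT libraries 1 to 4 and 28, 18, 20 and 13 counts in db/db libraries 1 to 4. All 4 db/db libraries were therefore above all 4 WT libraries. Pooled by genotype and scaled, the 79 db/db counts against 3 WT counts gave a ratio of 22.7, with an exact 95% counting interval from 7.51 to 113.0. The edgeR log2 fold change was 4.31 (SE 0.70, adjusted p = 0.00017), a value that depends on the prior count added to the WT zeros. Without WT library 1, which held all 3 WT counts, the fitted value was 7.22 (adjusted p = 0.000155), and it was 3.90 to 4.45 when any other library was left out. Bcat1 passed the filter on low counts through db/db alone, so it could be tested only because it was higher there. Requiring at least 10 counts in every library removes it. Its exons overlap those of Gm26666, which had 0 counts in every library.

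The dehydrogenase complex was lower in 2 of its 3 listed subunits. Bckdha (chr7:25629946-25658981, minus strand), which encodes the alpha subunit of the decarboxylase and carries the sites that the kinase phosphorylates, stood at 178, 180, 143 and 180 CPM in WT libraries 1 to 4 and at 76.1, 100, 113 and 110 CPM in db/db libraries 1 to 4. The genotypes did not overlap, although WT library 3 lay apart from the other WT libraries. Bckdha in db/db was thus at 58.6% of WT by the fit, with a 95% confidence interval of 47.2 to 72.7% (log2 fold change −0.77, SE 0.15, adjusted p = 0.000736). Bckdha shares 1171 of its 1899 exon bases with B3gnt8 on the opposite strand. B3gnt8 had 1 to 8 counts in WT and 13 to 32 in db/db. Because the use of strand in counting is not stated, the count of Bckdha is uncertain, and the B3gnt8 counts do not measure by how much.

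Dbt (chr3:116513070-116549981, plus strand), which encodes the transacylase core of the complex, changed by about as much and with the least spread among WT libraries relative to its mean. It stood at 136, 143, 139 and 145 CPM in WT and at 68.3, 93.5, 82.9 and 78.5 CPM in db/db, so that every db/db library was well below every WT library. By the fit, db/db was at 57.4% of WT, with a 95% confidence interval of 47.3 to 69.7% (log2 fold change −0.80, SE 0.13, adjusted p = 0.000207). No exon of Dbt is shared with another annotated gene.

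Bckdhb, the beta subunit of the decarboxylase and the partner of Bckdha in the same enzyme, was not called. It stood at 149, 128, 130 and 161 CPM in WT libraries 1 to 4 and at 99.0, 101, 128 and 138 CPM in db/db libraries 1 to 4. Of the db/db libraries, library 4 reached into the WT range and library 3 lay just under the lowest WT library. The log2 fold change was −0.29 (SE 0.15, 95% confidence interval −0.59 to 0.02, edgeR adjusted p = 0.151), an interval that reaches from 66.2% to 101% of the WT level. Dld, the dihydrolipoamide dehydrogenase that this complex shares with the pyruvate and 2-oxoglutarate dehydrogenases, was at −0.41 on the log2 scale and was not called (adjusted p = 0.061). It lay near the threshold: DESeq2 called it lower (−0.44, adjusted p = 0.0423), as did 4 other alternatives and 3 of the fits with a library left out.

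Bckdk, the kinase that inactivates the complex, was the only member with a positive fitted change. It stood at 62.3, 48.1, 44.7 and 55.2 CPM in WT libraries 1 to 4 and at 52.3, 67.4, 71.4 and 70.3 CPM in db/db libraries 1 to 4. Of the db/db libraries, 2, 3 and 4 were above every WT library and library 1 lay within the WT range. The log2 fold change of 0.31 (SE 0.16, 95% confidence interval −0.02 to 0.65) was not called (edgeR adjusted p = 0.157). The phosphatase Ppm1k, which opposes the kinase, had a log2 fold change of −0.36 (SE 0.21) and was not called either (adjusted p = 0.237). No exon of Bckdk is shared with another annotated gene.

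Whether the partners of the complex changed unequally was asked with the log2 ratio of their counts within each library, for which no scaling between libraries is needed. Kinase to substrate subunit, Bckdk over Bckdha, was −1.50, −1.89, −1.66 and −1.69 in WT libraries 1 to 4 and −0.53, −0.57, −0.66 and −0.64 in db/db libraries 1 to 4. The db/db libraries lay close together and far above all WT libraries, with means of −0.60 ± 0.06 and −1.68 ± 0.16 (SD, n = 4 each). The difference of 1.09 on the log2 scale is a 2.12-fold higher ratio, with an exact two-sided permutation p = 0.0286, the smallest that 4 against 4 libraries can give, and 0.0714 after Benjamini-Hochberg adjustment over the 5 pairs compared. No pair of the 5 could pass the threshold of 0.05 unless at least 3 of them reached that smallest p.

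Bckdha over Bckdhb, the alpha to beta subunits of the decarboxylase, was 0.26, 0.49, 0.14 and 0.15 in WT libraries 1 to 4 and −0.38, −0.01, −0.17 and −0.32 in db/db libraries 1 to 4. The ratio was positive in every WT library and negative in every db/db library, a sign that compares counts and not levels per length. The WT mean was 0.26 ± 0.16 and the db/db mean −0.22 ± 0.16 (SD, n = 4 each), a difference of −0.48 (exact permutation p = 0.0286, adjusted p = 0.0714). Each ratio with Bckdha, that of Bckdk to Bckdha included, rests on a Bckdha count that the overlap with B3gnt8 leaves uncertain. Bckdk over Ppm1k had a mean of 1.17 ± 0.30 over the WT libraries and of 1.85 ± 0.33 over the db/db libraries (SD, n = 4 each), and the genotypes overlapped (exact permutation p = 0.0571, adjusted p = 0.0952). For Mccc1 over Mccc2 the difference was −0.25 (exact permutation p = 0.514, adjusted p = 0.643), and for Bckdha over Bcat2 it was 0.05 (exact permutation p = 0.829, adjusted p = 0.829), with overlap in both.

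**Figure D2:**
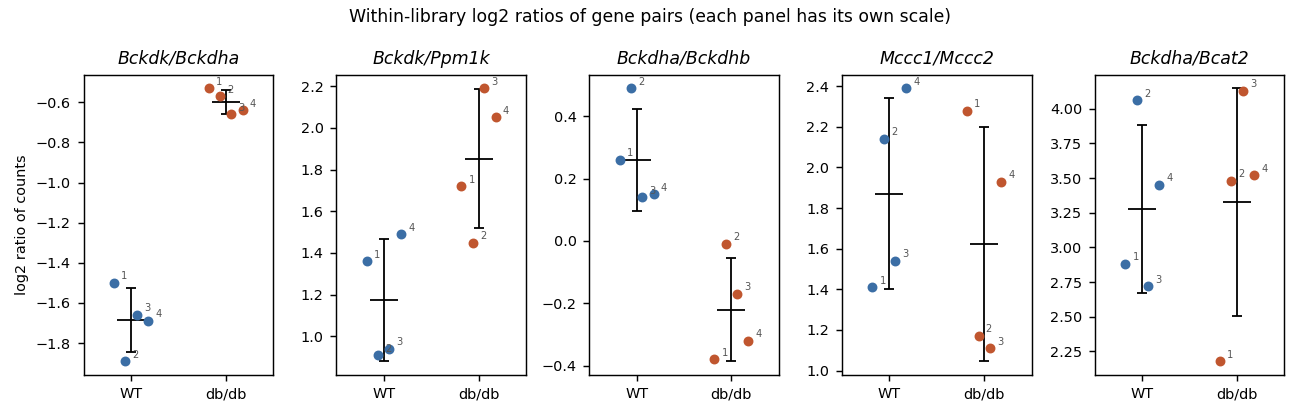
Log2 ratio of the counts of 2 genes within a library (vertical axis, own scale in each panel, not starting at 0) for 5 gene pairs in the 4 WT (blue) and 4 db/db (orange) libraries, numbered by replicate; the long dash is the mean and the whiskers are the SD. Bckdk/Bckdha lies between −1.89 and −1.50 for WT and between −0.66 and −0.53 for db/db, and Bckdha/Bckdhb is also without overlap, while the other 3 pairs overlap.

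On the leucine branch, 2 of the 3 listed genes were lower. Ivd, the isovaleryl-CoA dehydrogenase, stood at 80.1, 92.0, 67.3 and 76.4 CPM in WT libraries 1 to 4 and at 49.6, 57.3, 53.6 and 54.7 CPM in db/db libraries 1 to 4. The genotypes did not overlap and the db/db libraries varied little. Ivd fell to 68.2% of the WT level, a log2 fold change of −0.55 with an SE of 0.14 and an adjusted p of 0.00755.

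Mccc1 (chr3:35959312-36000678, minus strand), the biotin-carrying alpha subunit of 3-methylcrotonyl-CoA carboxylase, stood at 44.1, 73.4, 72.5 and 59.0 CPM in WT libraries 1 to 4 and at 42.4, 46.8, 32.4 and 36.1 CPM in db/db libraries 1 to 4. WT library 1 was the low WT value and lay below db/db library 2, so the genotypes overlapped. It was nevertheless called lower, at 63.6% of WT (log2 fold change −0.65, SE 0.18, adjusted p = 0.0126). Mccc1 shares 94 to 321 exon bases with each of 3 genes on the opposite strand (B230207O21Rik, Gm15952 and Mccc1os), of which Gm15952 held 0 to 4 counts and Mccc1os 0, and its count is uncertain for that reason.

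Mccc2, the beta subunit of the same carboxylase, was measured at 24 to 65 counts a library and was not called. It stood at 16.2, 16.0, 24.4 and 10.6 CPM in WT libraries 1 to 4 and at 8.12, 20.4, 14.6 and 8.93 CPM in db/db libraries 1 to 4. The WT and db/db ranges overlapped, and the log2 fold change of −0.38 (SE 0.31, 95% confidence interval −1.04 to 0.28, edgeR adjusted p = 0.405) left a fall as large as that of Mccc1 within its interval. Among the other genes of this branch, Auh (methylglutaconyl-CoA hydratase), Oxct1 (which activates ketone bodies) and Hlcs (which attaches biotin to carboxylases) were not called, with log2 fold changes of 0.27, −0.01 and 0.67. Leaving out db/db library 1 brought Auh past the threshold as higher (log2 fold change 0.39, adjusted p = 0.0461).

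On the isoleucine branch, Acadsb (chr7:131410601-131448944, plus strand), the short/branched-chain acyl-CoA dehydrogenase, stood at 170, 195, 187 and 197 CPM in WT libraries 1 to 4 and at 103, 110, 144 and 138 CPM in db/db libraries 1 to 4. All db/db libraries were below all WT libraries. Acadsb fell to 65.9% of the WT level (log2 fold change −0.60, SE 0.14, adjusted p = 0.00333). Acadsb lies within reach of Fgfr2 on the opposite strand but shares no exon bases with it. Echs1, the short-chain enoyl-CoA hydratase of the next step, also serves valine and fatty acids. It was 438 to 520 CPM in WT and 193 to 321 CPM in the db/db libraries, a log2 fold change of −0.80 (SE 0.15, edgeR adjusted p = 0.000819). Echs1 shares 142 exon bases with Paox on the opposite strand (50 to 78 counts in WT and 37 to 55 in db/db). Hsd17b10 had a log2 fold change of −0.39 and Acat1 of 0.04, and neither was called (adjusted p = 0.0763 and 0.896).

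On the valine branch, Hibch (chr1:52844929-52920986, plus strand), the 3-hydroxyisobutyryl-CoA hydrolase, was the least secure of the 6 calls. It stood at 88.6, 130, 150 and 110 CPM in WT libraries 1 to 4 and at 64.4, 102, 94.0 and 68.1 CPM in db/db libraries 1 to 4. WT library 1 was below db/db libraries 2 and 3, so the genotypes overlapped. The log2 fold change was −0.54 (SE 0.18, edgeR adjusted p = 0.0333). The call was lost without WT library 2 (adjusted p = 0.0798), WT library 3 (0.101), db/db library 1 (0.0813) or db/db library 4 (0.0905). Aldh6a1, the methylmalonate semialdehyde dehydrogenase that ends this branch, was 146 to 224 CPM in WT and 71.9 to 145 CPM in the db/db libraries, a log2 fold change of −0.75 with an SE of 0.20 and an adjusted p of 0.00951, and it shares 1078 exon bases with Bbof1 on the opposite strand. Bbof1 had 48 to 66 counts in WT and 15 to 29 in db/db, lower in db/db like Aldh6a1, so the count of Aldh6a1 is uncertain. Acad8 and Hibadh, the other enzymes of the branch, had log2 fold changes of 0.04 and −0.21 and were not called.

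Beyond the 10 genes, 24 other genes of transport, regulation and later steps were listed and 22 could be tested. Of the 22, 4 were lower (Echs1, Aldh6a1, Pcca and Mcee), 1 was higher (Bcat1) and 17 were not called. The 18.2% called lower stands beside 11.9% of all genes tested, and the median log2 fold change was −0.27. In the propionyl-CoA steps that isoleucine and valine feed, Pcca, the alpha subunit of propionyl-CoA carboxylase, was lower, at −0.48 on the log2 scale (SE 0.16, adjusted p = 0.0358), and so was the epimerase Mcee (−0.45, SE 0.13, adjusted p = 0.0181). The beta subunit Pccb (−0.19), the mutase Mmut (−0.36) and the cobalamin genes Mmaa (−0.43) and Mmab (0.38) were not called. Pcca shares 241 exon bases with Ggact on the opposite strand (30 to 55 counts in WT and 53 to 84 in db/db). Its call was lost when any of WT libraries 2, 3 or 4 or db/db libraries 1 or 4 was left out, and the Mcee call without WT library 4 (adjusted p = 0.0545).

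Of the transport genes, Slc25a44, the mitochondrial carrier for branched-chain amino acids, had a log2 fold change of −0.32 (adjusted p = 0.116) and Slc3a2, the heavy chain of a plasma membrane transporter, had −0.04 (adjusted p = 0.903). Neither was called. The light chains Slc7a5 and Slc7a8 did not pass the filter on low counts. Slc7a5 was at 0 to 0.844 CPM in WT and 0.902 to 2.22 CPM in db/db, without overlap, and Slc7a8 at 0 to 2.53 and 0.744 to 4.51 CPM, where 3 counts are 0.902 to 1.33 CPM. Tested with every gene that had a count, their log2 fold changes were 2.05 (adjusted p = 0.219) and 1.29 (adjusted p = 0.207), and neither was called. The transcription factor gene Klf15 was not called (log2 fold change −0.23, SE 0.41), with WT library 2 at 16.9 CPM and the other WT libraries at 3.24 to 6.37 CPM.

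**Figure D3:**
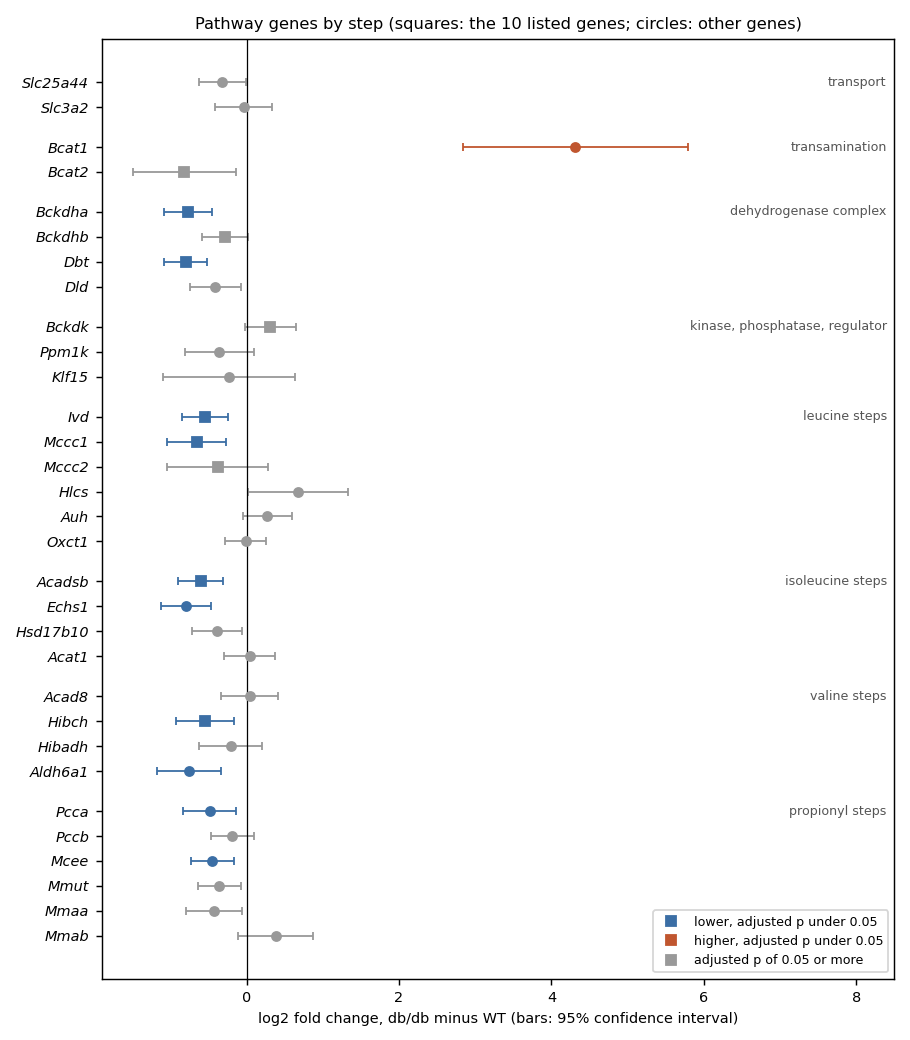
Log2 fold change, db/db minus WT (horizontal axis), of the 10 listed genes (squares) and 21 other tested genes of the pathway (circles), grouped by step; bars are 95% confidence intervals of the edgeR fit, blue marks genes called lower, orange genes called higher and grey genes not called. The 10 blue genes lie between −0.80 and −0.45, and Bcat1 is the single orange gene, at 4.31.

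Other mitochondrial enzymes give a measure of how far the shift was shared. Of 17 genes of the tricarboxylic acid cycle, 4 were called lower and 1 higher (23.5% and 5.88%), with a median log2 fold change of −0.24. Of 16 tested genes of fatty acid oxidation, 7 were lower and 0 higher (43.8% and 0.0%), with a median of −0.34. Among the 10 branched-chain genes 6 were lower and 0 higher, with a median of −0.57. The differences between these lists were not tested.

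Markers of the cell types that BAT can hold moved with genotype as well. Of 8 brown adipocyte markers, 6 were tested and 5 were lower (Ucp1, Cidea, Ppargc1a, Cox7a1 and Cox8b). Prdm16, the other tested marker, was at 0.56 on the log2 scale and was not called (edgeR adjusted p = 0.188). The summed level of the 8 was 8885.7 to 10553.5 CPM over the WT libraries, against 3721.3 to 6763.6 CPM over the db/db libraries. Of 6 general adipocyte markers, 0 were lower and 2 were higher (Plin1 and Fabp4), with summed levels of 8860.8 to 15740.7 CPM in WT and 14522.8 to 19502.2 CPM in db/db. The lower sum of the 10 genes went with a lower sum of the brown adipocyte markers, and of the endothelial markers given below, but not of the general adipocyte markers. Fabp4 made up most of the general adipocyte sum, at a mean of 7790 CPM in WT and 12200 CPM in db/db. The general adipocyte markers not called were at −0.39 (Pparg), −0.17 (Cidec), 0.04 (Lipe) and 0.32 (Adipoq) on the log2 scale. When each library was scaled so that the geometric mean of the 6 adipocyte markers was equal, an alternative chosen after seeing the data, 7 of the 10 genes were lower (Bcat2 in addition). On the same scale the median over all genes shifted to −0.19 and 1663 of the 9264 genes were called lower, against 1102 with TMM. On that scale Dbt was at −1.01 and Bckdk at 0.10, and 0 of the 10 members changed sign.

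Macrophage markers were higher for 6 of 7 genes, with sums of 139.7 to 186.6 CPM in WT and 645.5 to 1169.6 CPM in db/db. Cd14, the remaining macrophage marker, was at −1.03 on the log2 scale and was not called (edgeR adjusted p = 0.0997). Fibroblast markers were higher for 5 of 5 (588.7 to 727.9 and 1121.5 to 2443.1 CPM), and 2 of 4 endothelial markers were lower (225.8 to 286.1 and 158.4 to 191.3 CPM). Skeletal muscle markers were higher for 10 of 10, with 431.8 to 1503.5 CPM for WT against 2262.5 to 11153.4 CPM for db/db. By library the muscle sum was 431.8, 844.5, 665.1 and 1503.5 CPM in WT libraries 1 to 4 and 11153.4, 3088.2, 4883.4 and 2262.5 CPM in db/db libraries 1 to 4. None of the 6 marker lists had a gene at 0 in every library of a genotype. The part of these cell types in the branched-chain results was not tested beyond the scaling above and a fit with a score of the 10 muscle genes as a covariate. In that fit 0 of the 10 members were called, beside 1.26% of all genes called lower. Dbt was at −0.66 (adjusted p = 0.15) and Bckdha at −0.50 (adjusted p = 0.332), Bcat2 was at −1.23, Mccc1 at −0.84 and Bckdk at 0.63, farther from 0 than without the covariate, and Mccc2 turned to 0.34. The muscle score did not overlap between the genotypes (−1.27 to −0.155 in WT and 0.0745 to 1.68 in db/db), so the score and the genotype are largely tied. Without db/db library 1, 6 members remained lower by count, with Bcat2 added and Hibch lost.

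**Figure D4:**
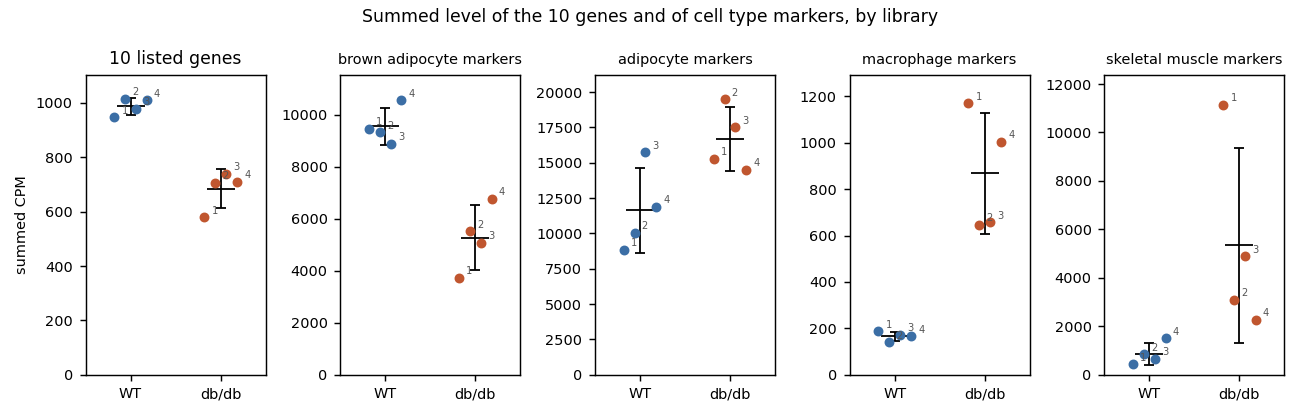
Summed CPM (vertical axes, starting at 0, own scale in each panel) of the 10 branched-chain genes and of the marker lists of brown adipocytes (8 genes), adipocytes (6), macrophages (7) and skeletal muscle (10) in the 4 WT (blue) and 4 db/db (orange) libraries, numbered by replicate; the long dash is the mean and the whiskers are the SD. The 10 genes and the brown adipocyte markers are lower in every db/db library than in any WT library, the macrophage and muscle markers higher, and adipocyte markers overlap.

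The libraries held 2374079 to 3240074 counts. After the scaling above, 3 counts were 0.902 to 1.33 CPM, and 30.7 to 37.6% of the counts were from mitochondrially encoded genes. Across genes, Pearson's r was 0.942 to 0.958 within a genotype and 0.829 to 0.896 between the genotypes.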

How the data were processed

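BAT of 4 WT and 4 db/db mice was sequenced single-end by a commercial digital mRNA-seq service. Per the study's methods, reads were cleaned with bbduk, aligned to mm10 with STAR and counted per gene with HTSeq, whereas the submitters' processing notes name Trimmomatic, HISAT2 and DESeq2. The deposited raw counts per Ensembl gene were the values used. The strand setting and the treatment of PCR copies are not given in the sources used here. The counting interval of Bcat1 and the floors therefore cover counting error only. The confidence intervals of the edgeR fit also cover the spread between libraries. The normalized values were not used here.

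Of 31053 identifiers, 31011 matched GENCODE M21 (GRCm38), which supplied names, positions and overlaps. Genes were kept by filterByExpr (minimum count 10, minimum total 15), scaled by TMM and tested in R 4.3.3 with edgeR 4.0.16 (glmQLFit and glmQLFTest), genotype being the single factor, with Benjamini-Hochberg adjustment over 9264 genes at 0.05. Standard errors came from the F statistic. The study used DESeq2, run here as an alternative (1.42.0), as was limma 3.58.1 (voom). Ratios within libraries (prior count 2) were compared by exact two-sided permutation tests in scipy 1.17.1. The libraries are of separate mice per the study, so p-values measure the spread between mice, preparation of the library included.

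The 10 members and all gene lists were chosen with earlier results of these data known. Named are all members, the called genes of the wider pathway (others where a sentence counts them) and, by likeness to the members, 5 further genes. Alternatives were other scalings, filters, tools, a replicate block, a muscle covariate and each library left out. Replicate numbers 1 to 4 in the labels belong to different animals. Promoter windows are from RefSeq. A gene of the wider pathway that was counted with its list is not reported here by name.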

Additional observations from a re-analysis of the deposited data

Results flagged for a closer look

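Over the CPM values of the 10 members and Bcat1 and the 5 log2 ratios, 32 groups of 4 libraries were examined for a library far from the others, and 2 stood apart where chance gives 1.6. The Bckdha level of WT library 3 was 143 CPM, against 178 to 180 CPM in the other WT libraries. It remained above the highest db/db library, at 113 CPM. The Bcat1 level of WT library 1 was 1.21 CPM, which is 3 counts, against 0 in the other WT libraries. Chance flags about 1 in 20 groups, a rate that does not hold for Bcat1 in WT. With 0 in the other WT libraries, any count in a single library would have stood apart.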

How the results depend on the processing

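The count of called genes was 2568 and ran from 2018 to 3170 under the other scalings, filters and tools, and from 2236 to 2483 with each library left out. It was 484 when the muscle score entered as a covariate, where 0 members and 0 other pathway genes were lower and Mccc2 turned to 0.34. The members called lower in the main fit all stayed negative, at −0.84 to −0.43. Bcat1, tested only because it was higher in db/db, alone stayed called (log2 fold change 3.88, edgeR adjusted p = 0.0443). The muscle score does not overlap between the genotypes. Calls were higher in 57.1% of the main calls, 38.2% when scaled to adipocyte markers and 75.8% with the covariate. Outside the covariate fit, the members called lower numbered 5 to 7 in every alternative and 0 were higher. Over the 10 members and Bcat1, of 98 fits of a single gene with all libraries and without the covariate, 95 kept their direction and side of the threshold and 3 passed it newly (Bcat2 each time). Of their 88 fits with a library left out, 82 kept both, 2 passed newly (Bcat2) and 4 were lost (Hibch). Among the other pathway genes, Pcca was lost in 5 fits with a library left out and Mcee in 1, Auh passed as higher in 1, and Dld, Mmut and Hsd17b10 passed as lower in 3, 1 and 1. Under the other alternatives Dld passed in 5, Mmut and Hsd17b10 in 4 each and Mmaa and Slc25a44 in 1 each, and Pcca was lost in 1. The other pathway genes called lower numbered 7 with library totals only, 9 when scaled to adipocyte markers and 2 to 6 with a library left out. Those called higher numbered 0 when at least 10 counts were required in every library, since Bcat1 is then untested, and 1 to 2 with a library left out. With a library left out the difference in Bckdk/Bckdha ran from 1.02 to 1.15 and that in Bckdha/Bckdhb from −0.55 to −0.41, where the smallest possible p is 0.0571. For Bckdha/Bcat2 it was −0.01 with a prior count of 5 and ran from −0.22 to 0.43 with a library left out.

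The replicate number as a block gave 2557 genes and 7 members lower, Bcat2 being added (adjusted p = 0.0408). Libraries with the same number come from different mice, and the correlation of their deviations lay between −0.0781 and 0.049, so the numbers do not pair the libraries. Slc7a5 and Slc7a8 were testable only without the filter on low counts or in DESeq2, where neither was called, and the counts of Bcat2 and Mccc2, down to 13 and 24, leave wide intervals.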

Other observations

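The genes outside the pathway lists whose log2 CPM was most like the mean of the 10 standardized members over the 8 libraries were Ddt (Pearson r = 0.993), Abhd6 (r = 0.993), Naa25 (r = 0.99), Mcrip2 (r = 0.989) and Pnpla8 (r = 0.987). The libraries share a genotype 4 by 4, and the separation of the genotypes enters these values, which are a description. All 5 were lower in db/db, with log2 fold changes of −0.91, −1.35, −1.07, −1.01 and −0.53.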
